A study of Mus musculus with 6 samples.

Results

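The genes described here are 10 genes of antigen presentation by MHC class II: H2-Aa, H2-Ab1, H2-Eb1, Cd74, Ciita, H2-DMa, H2-DMb1, H2-DMb2, H2-Oa and H2-Ob. They were chosen as a list of names, matched to the Ensembl identifiers of the files through GENCODE M21, and all 10 were found among the 54532 genes of the files. RNA-seq had been made of 6 libraries of sorted cells from C57BL/6 mice, 1 library per condition. The 4 macrophage libraries were labelled as spleen and came from WT mice given PBS (WT), WT mice given iron (WT/FE), mice with AML given PBS (MA9) and mice with AML given iron (MA9/FE). The 2 leukemia cell libraries were labelled as BM and came from mice with AML given PBS (MA9) and mice with AML given iron (MA9/FE).

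The AML had been started from c-Kit+ BM cells infected with a retrovirus that carries MLL-AF9 and GFP. Per the methods of the study, GFP+ leukemia cells of such mice were then passed on to the C57BL/6 recipients, which received iron dextran or PBS by intraperitoneal injection, and the WT mice received no leukemia cells. The leukemia of these mice was therefore started with 1 fusion gene that the retrovirus delivered, and the leukemia cells carry GFP. The methods of the study describe a macrophage gate on GFP-, F4/80+, CD115int cells with little Gr-1 and name the BM, whereas the labels name the spleen for the same cells. This difference was not settled here, and the macrophages are called by their label. Nothing in the labels says whether a library came from 1 mouse or from several.

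MHC class II molecules are dimers of an alpha and a beta chain that display peptides from endosomes to CD4+ T cells. The invariant chain, encoded by Cd74, fills the groove of new dimers, H2-DM exchanges its last fragment for peptide, and H2-DO restrains H2-DM. CIITA binds no DNA itself and acts on the class II promoters through the proteins that hold the X and Y boxes there. B cells, dendritic cells and some macrophages are the classical carriers of class II, so the purity of a sorted population bears on any level of these genes.

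The label "macrophage" was checked against markers of cell types. In WT macrophages Cd79a, a chain of the B cell receptor complex, had 745 FPKM (fragments scaled by gene length and by library), while Adgre1, which encodes F4/80, had 40.1 FPKM and Csf1r, which encodes CD115, had 56.6 FPKM. Over the 4 macrophage libraries the 13 B cell markers summed to between 1522 and 2677 FPKM, and the 18 macrophage markers to between 566 and 1268 FPKM. No B cell or macrophage marker was at 0 in any macrophage library. By these lists the B cell markers outweighed the macrophage markers in each of the 4 libraries, which goes against the label for part of the RNA. In the 2 leukemia cell libraries Hoxa9, a target of MLL-AF9, was at 40.6 and 41.0 FPKM, against 0.12 to 0.79 FPKM of Hoxa9 in macrophages. The list of 6 such targets summed to 152 and 157 FPKM in leukemia cells, against 25.9 to 40.5 FPKM in macrophages. With and without iron, 5 of the 6 were higher in leukemia cells than in macrophages of mice with AML and 1 was lower. In bulk RNA, fewer cells of a type and less RNA per cell cannot be told apart.

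Of the 10 genes, 8 lie in the class II region of chromosome 17 in mm10, Ciita lies on chromosome 16 and Cd74 on another chromosome. H2-Aa spans chr17:34282744-34287823 on the minus strand, H2-Ab1 chr17:34257689-34269419, H2-Eb1 chr17:34305867-34316674 and H2-Ob chr17:34238903-34254414. Further towards the chromosome start, H2-Oa spans chr17:34092340-34095234, H2-DMa chr17:34119541-34139101, H2-DMb2 chr17:34143307-34151555 and H2-DMb1 chr17:34153072-34160230. Ciita spans chr16:10480059-10528418. All 10 are annotated as protein coding.

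Promoter windows, from 250 bases before to 50 bases after the start, were given for 7 of the 10 genes in the RefSeq sequences for GRCm38.p6. They were searched on both strands for ACNGATG, which is part of the X box, and for GATTGG, the part of the Y box that holds an inverted CCAAT box. The 150 bases before the start are shown for the 6 genes in which GATTGG lies near the start on the sense strand. A box with other letters would go unmarked, and a match need not be the box of that gene. Capitals mark the matches, the lines run 5′ to 3′, and the second match in H2-Eb1, CCAATC, is GATTGG on the other strand.
H2-Aa: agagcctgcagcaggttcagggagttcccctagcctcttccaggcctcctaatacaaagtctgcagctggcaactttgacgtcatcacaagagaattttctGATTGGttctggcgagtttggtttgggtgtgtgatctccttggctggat
H2-Eb1: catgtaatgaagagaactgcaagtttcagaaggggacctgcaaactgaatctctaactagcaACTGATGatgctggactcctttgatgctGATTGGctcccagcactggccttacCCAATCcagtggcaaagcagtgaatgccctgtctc
H2-DMb1: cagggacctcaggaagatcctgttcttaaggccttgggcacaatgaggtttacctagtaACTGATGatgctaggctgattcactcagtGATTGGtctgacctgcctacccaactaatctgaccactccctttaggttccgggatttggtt
H2-DMb2: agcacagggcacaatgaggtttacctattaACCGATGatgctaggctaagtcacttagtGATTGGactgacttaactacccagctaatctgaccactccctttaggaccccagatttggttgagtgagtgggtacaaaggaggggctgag
H2-Oa: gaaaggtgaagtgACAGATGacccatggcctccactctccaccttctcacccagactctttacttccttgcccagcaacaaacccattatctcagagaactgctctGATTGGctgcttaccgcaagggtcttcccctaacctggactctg
H2-Ob: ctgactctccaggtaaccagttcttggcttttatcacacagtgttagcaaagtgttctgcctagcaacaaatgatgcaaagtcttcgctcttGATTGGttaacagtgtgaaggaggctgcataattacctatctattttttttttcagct

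The windows shown are chr17:34287824-34287973, minus strand for H2-Aa; chr17:34305717-34305866, plus strand for H2-Eb1, and chr17:34153041-34153190, plus strand for H2-DMb1. Those of the other genes are chr17:34145099-34145248, plus strand for H2-DMb2, chr17:34092229-34092378, plus strand for H2-Oa and chr17:34238755-34238904, plus strand for H2-Ob. GENCODE M21 places the start of H2-DMb1, H2-Oa and H2-Ob inside these windows and that of H2-DMb2 before its window, so the windows follow RefSeq only. GATTGG began 49 bases before the start in H2-Aa, 60 in H2-Eb1, 62 in H2-DMb1, 91 in H2-DMb2, 44 in H2-Oa and 58 in H2-Ob. ACNGATG was found before it on the sense strand in H2-Eb1, H2-DMb1, H2-DMb2 and H2-Oa, with 21, 22, 22 and 86 bases between the matches. In H2-Aa the only match to ACNGATG was on the other strand, outside the bases shown. H2-DMa has 2 starts in RefSeq, the first with no match to either motif and the second with GATTGG 199 bases before it. Of all 32851 windows of this length, 16.1% hold GATTGG, 9.85% hold ACNGATG and 1.52% hold both. A spacing of 15 to 25 bases on the sense strand, a range chosen after the 3 close pairs had been seen, is found in 7 windows, and 4 of these are H2-Eb1, H2-DMb1, H2-DMb2 and H2-Eb2, a further class II beta chain gene that is not among the 10. These matches are descriptions of letters and not of binding.

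Cd74 and the classical chains were among the most abundant transcripts of the macrophage libraries. By FPKM, Cd74 ranked 3 of all genes in both WT libraries and 4 in both from AML, and H2-Eb1 ranked 5 in both WT libraries, 8 in MA9 and 7 in MA9/FE. H2-Ab1 ranked between 7 and 13 and H2-Aa between 10 and 18, whereas the other 6 genes were lower in the order, down to Ciita at 551 to 1172. The 10 genes took 2.89%, 2.69%, 1.76% and 2.65% of all reads in the 4 libraries, given as WT, WT/FE, MA9 and then MA9/FE, from 553408, 433412, 292490 and 447525 reads. The MA9 library was the lowest of the 4, and the other 3 lay close together. In leukemia cells the 10 genes took 0.0509% of reads without and 0.0520% with iron, from 8965 and 9036 reads.

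The classical chains form the displayed dimers. Macrophages had H2-Aa, the alpha chain of I-A, at 2267 FPKM in WT, then 2091 with iron, and in AML at 1383 FPKM without and 2081 with iron, while leukemia cells had 26.6 FPKM without and 28.3 with iron. Values below keep this order of libraries. H2-Ab1, the beta chain of I-A, had 3128, 2889, 1909 and 3132 FPKM in macrophages, and 42.3 and 45.4 in leukemia cells. H2-Eb1, the beta chain of I-E, had 4041, 3646, 2456 and 4100 FPKM, and 32.8 and 32.4 in leukemia cells. For each of the 3 chains the MA9 library was the lowest macrophage library, and every leukemia cell library lay far below every macrophage library. H2-Ea-ps, the I-E alpha gene that C57BL/6 mice carry in a defective form, stayed at or below 1.13 FPKM in all 6 libraries, so H2-Eb1 was transcribed at a high level with almost no transcript of its partner.

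Cd74, the invariant chain, had 7928, 7042, 4730 and 8144 FPKM in macrophages, lowest in MA9 and highest in MA9/FE, and 94.7 and 105 FPKM in leukemia cells. Its ratio to H2-Ab1 moved little, from 2.24 in MA9 leukemia cells to 2.60 in MA9/FE macrophages. The invariant chain thus kept nearly the same proportion to the I-A beta chain at levels that differed many-fold. The ratio of H2-Eb1 to H2-Ab1 did not: it was 1.26 to 1.31 in macrophages, and in leukemia cells it was 0.78 (95% counting interval 0.71 to 0.85) in MA9 and 0.71 (0.65 to 0.78) in MA9/FE mice.

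**Figure D1:**
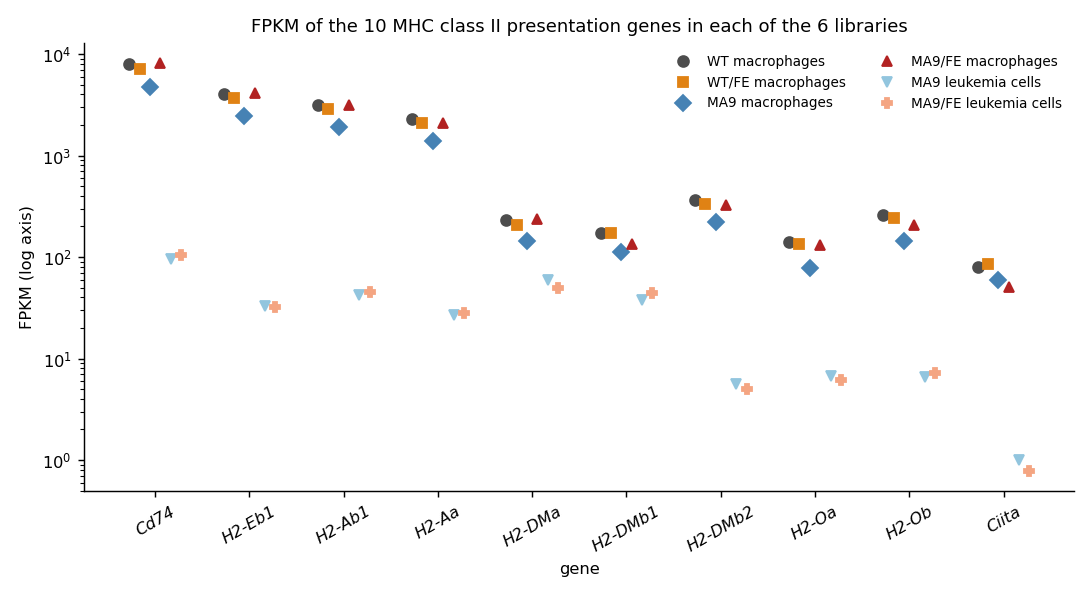
FPKM as deposited (vertical axis, logarithmic) of each of the 10 genes (horizontal axis) in the 6 libraries, 1 point per library and no error bars because each condition has 1 library. The 4 macrophage points of each gene lie above its 2 leukemia cell points, by the smallest distance in H2-DMa and H2-DMb1.

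H2-DM loads peptide. H2-DMa, its alpha chain, had 230, 206, 143 and 235 FPKM in macrophages, and 59.1 and 49.1 in leukemia cells. The beta chain has 2 genes, H2-DMb1 with 174, 173, 113 and 135 FPKM in macrophages and 37.9 and 43.9 in leukemia cells, and H2-DMb2 with 366, 334, 222 and 329 FPKM in macrophages and 5.60 and 5.04 in leukemia cells. The macrophages thus had more H2-DMb2 than H2-DMb1 and the leukemia cells more H2-DMb1 than H2-DMb2. The longest coding transcripts of these genes are identical at 95.5% of 1058 aligned bases, with a longest identical run of 221 bases, so how the counting split reads between them is uncertain. In GENCODE M21, H2-DMa shares 360 exon bases with Brd2 on the opposite strand, and Brd2 had 61.5 to 74.0 FPKM in the 6 libraries. The length of H2-DMa found from the values was 1641 bases, against 3448 in GENCODE M21. The counted exons may therefore not hold this overlap. Whether the counting used strand is not given in the sources used here, and the part of Brd2 reads in the level of H2-DMa was not tested.

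H2-DO is the modulator of H2-DM and is best known from B cells. H2-Oa, its alpha chain, had 140, 135, 78.4 and 130 FPKM in macrophages, and 6.75 and 6.10 in leukemia cells. H2-Ob, its beta chain, had 259, 240, 145 and 208 FPKM in macrophages, and 6.59 and 7.14 in leukemia cells. Both were lowest in MA9 among the macrophages. In GENCODE M21, H2-Oa overlaps BC051537 on the opposite strand by 321 exon bases, and BC051537 was at or below 1.28 FPKM in every library. The length of H2-Oa found from the values was 1314 bases, against 1407 in GENCODE M21.

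Ciita, the transactivator, had 79.6, 84.5, 59.6 and 50.5 FPKM in macrophages, from 14820, 13537, 9667 and 7740 reads. In leukemia cells it had 1.01 and 0.78 FPKM, from 175 and 133 reads. It was the only one of the 10 that was lowest in MA9/FE rather than in MA9 macrophages. Ciita shares 329 exon bases with Dexi on the opposite strand, and Dexi had 16.9 to 25.2 FPKM in macrophages.

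The first comparison asks how macrophages of mice with AML differ from those of healthy mice when no iron was given. All 10 genes were lower in MA9 than in WT macrophages. Their median log2 fold change, of FPKM + 1 as in all comparisons here, was -0.70. None of the 10 was past a fold of 2, against 4.75% of all 16957 genes tested, so by the rule used here the set made no call. At a fold of at least 1.5, a limit chosen after the data had been seen, 9 of the 10 were lower, against 4.44% of all genes that were lower. The exception was Ciita, at -0.40 (95% counting interval -0.44 to -0.37). The 3 classical chains were each at -0.70, Cd74 was at -0.73 (-0.74 to -0.72), H2-DMa at -0.66, H2-DMb1 at -0.61 and H2-DMb2 at -0.71. The H2-DO genes were the lowest, with H2-Oa at -0.81 (-0.90 to -0.74) and H2-Ob at -0.82 (-0.86 to -0.78). Counting error is therefore small beside these differences, but the spread between mice is unknown with 1 library per condition, so this pair of libraries alone gives no p-value.

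B cell markers moved with the class II genes in this comparison. All 13 were lower in MA9 too, at a median log2 fold change of -0.69, and their summed level was 56.9% of that in WT macrophages, beside 60.4% for the 10 class II genes. The 18 macrophage markers summed to 98.2% of WT and the 11 dendritic cell markers to 81.8%, whereas the 7 neutrophil markers summed to 1785 FPKM in MA9 against 3.04 in WT macrophages and the 6 plasma cell markers to 200% of WT. The part of these other cells in the class II levels was not tested. The summed FPKM of the 10 genes divided by that of the B cell markers was 6.95, 6.62, 7.38 and 7.15 in the 4 macrophage libraries. Divided by that of the macrophage markers it was 32.3, 17.2, 19.9 and 14.6, and by that of the dendritic cell markers 38.2, 38.0, 28.2 and 51.9. Both of these ratios spread more widely than the ratio to the B cell markers. The macrophage markers themselves summed to 170% of WT in WT/FE and 220% in MA9/FE macrophages. A rise of that list lowers its ratio at any class II level, so the spread does not show a source. Which cells the class II reads came from was not tested.

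**Figure D2:**
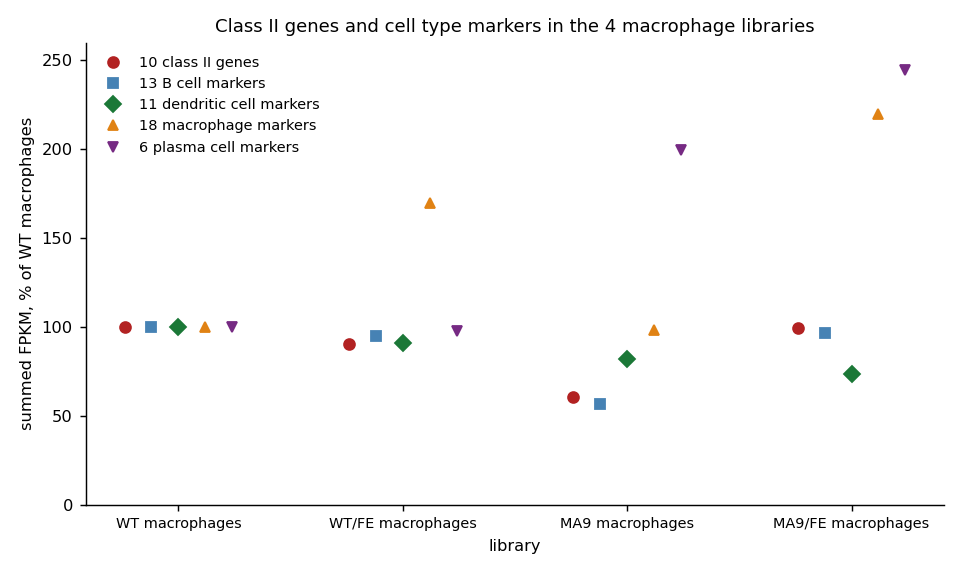
Summed FPKM of the 10 class II genes and of 4 marker lists in the 4 macrophage libraries, as a percentage of the WT library (vertical axis, from 0), with 1 point per list and library. The class II points lie beside the B cell points in all 4 libraries (60.4% and 56.9% in MA9, 99.6% and 96.9% in MA9/FE), and apart from the macrophage marker points in WT/FE and MA9/FE.

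The same question with iron compares MA9/FE with WT/FE macrophages. Here the 10 genes did not move as a group. The median log2 fold change was 0.01, 5 genes were above 0 and 5 below, and none was past a fold of 2, against 4.55% of all genes. Cd74 was at 0.23 (95% counting interval 0.22 to 0.24), H2-DMa at 0.20 (0.15 to 0.26), H2-Eb1 at 0.19 and H2-Ab1 at 0.14. H2-Aa, at 0.01, and H2-DMb2 and H2-Oa, at 0.00 and -0.03, were within counting error of 0. Ciita stood apart at -0.71 (-0.76 to -0.68), and was the only one of the 10 past a fold of 1.5, where 6.38% of all genes were lower. H2-DMb1 was at -0.33 (-0.40 to -0.27) and H2-Ob at -0.19 (-0.22 to -0.15). Another scaling of the libraries changes how many of the 10 lie above 0, from 3 by total reads to 6 by TMM without hemoglobin and immunoglobulin genes. The median of the B cell markers was -0.19 and that of the macrophage markers 0.18 in this comparison. By summed FPKM the B cell markers were at 2593 in MA9/FE against 2543 in WT/FE macrophages, so their direction depended on the measure. Of the 13, 4 were higher and 9 lower.

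Iron in healthy mice was compared next, as WT/FE against WT macrophages. The class II genes differed little. The median log2 fold change was -0.12, from -0.18 in Cd74 (95% counting interval -0.19 to -0.17) to 0.08 in Ciita (0.05 to 0.11), and none was past a fold of 2, against 1.30% of all genes. The intervals of H2-DMb1 and H2-Oa, at -0.02 and -0.06, include 0. Beside this, all 18 macrophage markers were higher in WT/FE than in WT macrophages, 5 of them past a fold of 2, with a median of 0.93, and their summed level was 170% of WT, while the B cell markers were at 95%. C1qa, a complement chain made by tissue macrophages, had 67.7 FPKM in WT and 137 in WT/FE macrophages.

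Iron in mice with AML, as MA9/FE against MA9 macrophages, gave the opposite sign for most of the 10. Of the 10 genes 9 were higher in MA9/FE, at a median log2 fold change of 0.68 where the median of all genes was 0.01. None was past a fold of 2, against 2.43% of all genes, and 7 were higher by a fold of at least 1.5, against 6.20% of all genes that were higher. Cd74 was at 0.82 (95% counting interval 0.81 to 0.83), H2-Eb1 at 0.77, H2-Oa at 0.76, H2-Ab1 at 0.75, H2-DMa at 0.74, H2-Aa at 0.63, H2-DMb2 at 0.60, H2-Ob at 0.55 and H2-DMb1 at 0.29 (0.22 to 0.37). Ciita was at -0.20 (-0.25 to -0.16). This comparison shares the MA9 library with that of MA9 against WT, so the lower level there and the higher level here rest on 1 library and are not independent.

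Markers of cell types, those of macrophages among them, also differed in this comparison. All 13 B cell markers were higher in the MA9/FE library, with a median of 0.64 and 1 past a fold of 2, and all 18 macrophage markers were higher, with a median of 1.08 and 10 past a fold of 2. All 7 neutrophil markers were lower, 2 of them past a fold of 2, and they summed to 903 FPKM in MA9/FE against 1785 in MA9. The part of each kind of cell in the class II levels was not tested. Relative to H2-Aa, Ciita had a ratio of FPKM of 0.0351, 0.0404 and 0.0431 in WT, WT/FE and MA9 macrophages. It was 0.0242 (0.0237 to 0.0248) in MA9/FE macrophages. In leukemia cells the ratio was 0.0380 in MA9 and 0.0276 (0.0228 to 0.0331) in MA9/FE mice, so a low ratio was not particular to MA9/FE macrophages. For macrophages, with the trend of fold change against gene length removed, Ciita was at -0.12 and the median of the 10 at 0.64. Ciita, with 9535 exon bases in GENCODE M21, is the longest of the 10.

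**Figure D3:**
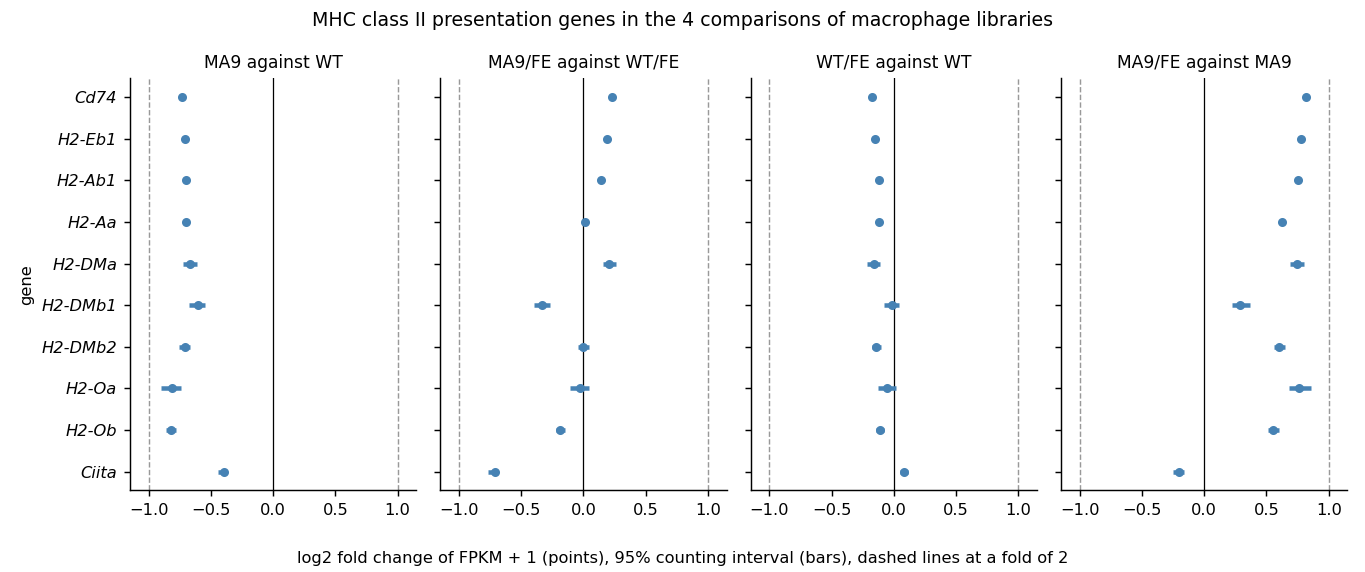
Log2 fold change of FPKM + 1 (horizontal axis) of each of the 10 genes (vertical axis) in the 4 comparisons of macrophage libraries, as points with 95% counting intervals of the reads as bars, which do not include the spread between mice. No point crosses the dashed lines at a fold of 2, and Ciita lies apart from the others in MA9/FE against WT/FE and in MA9/FE against MA9.

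The 4 macrophage libraries were also fitted together by limma with additive terms for leukemia and iron, where the libraries of the other factor stand in for replicates and 1 residual degree of freedom is left. For leukemia, 2.29% of the 16296 genes tested were called and none of the 10 class II genes was. Their lowest adjusted p was 0.22 in limma, for Ciita, and 2 of the 10, Ciita and H2-DMb1, had an unadjusted p under 0.05, as had 2510 of all genes. For iron, 2 genes of all (0.0123%) and none of the 10 were called by limma, and none of the 10 had an unadjusted p under 0.05 where 625 of all genes had. An additive fit has no term for an iron effect that differs between WT and MA9 mice.

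Iron in leukemia cells, MA9/FE against MA9, left the 10 genes near their level. The median log2 fold change was 0.03, and none was past a fold of 2, against 0.868% of all genes. H2-DMa was at -0.26 (95% counting interval -0.37 to -0.17), H2-DMb1 at 0.21 (0.09 to 0.33) and Cd74 at 0.15 (0.07 to 0.23). Ciita was at -0.18 on the FPKM + 1 scale, which draws low genes towards 0, and its counting interval without that 1 runs from -0.71 to -0.04. The intervals of the other 6 genes include 0. For comparison, all 12 genes of the class I list, among them B2m, the light chain of class I, with 1232 and 992 FPKM, were lower in MA9/FE leukemia cells, none past a fold of 2, with a median of -0.26.

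No fit was possible for the leukemia cells alone, with 1 library on each side. Averaged over both kinds of cell, iron called no gene. In limma over the 4 libraries of mice with AML, iron had 0 of 16320 genes (0.00%) with an adjusted p at or under 0.05 and 614 with an unadjusted p under 0.05, none of the 10 among them. Over all 6 libraries as 3 pairs with and without iron, limma called 0 of 17183 genes (0.00%), with 609 at an unadjusted p under 0.05, again none of the 10.

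The last comparison sets leukemia cells against macrophages of the same kind of mouse. Kind of cell and organ, BM or spleen by the labels, cannot be told apart in it. All 10 genes were lower in leukemia cells by more than a fold of 2 in both kinds of mice, where 12.8% of all genes were lower in MA9 and 13.1% in MA9/FE mice. In limma over the 4 libraries of mice with AML, with terms for kind of cell and iron and 1 residual degree of freedom, all 10 were lower, where 20.3% of all genes were. The adjusted p in limma ran from 7.83e-05 for Ciita to 0.00710 for H2-DMa. With no minimum of reads 9 of the 10 passed, and the highest adjusted p in limma was 0.0882.

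The size of the difference varied widely among the 10 genes, also between the 2 beta chain genes of H2-DM. The 3 classical chains had between 1.34% (H2-Eb1) and 2.22% (H2-Ab1) of the macrophage FPKM in MA9 mice and between 0.79% and 1.45% in MA9/FE mice. Cd74 had 2.0% and 1.29%, Ciita 1.70% (95% counting interval 1.45% to 1.97%) and 1.55% (1.29% to 1.84%), and H2-DMb2 2.53% and 1.53%. The H2-DO genes had more, with 8.61% and 4.68% for H2-Oa and 4.54% and 3.43% for H2-Ob. H2-DMa and H2-DMb1 were reduced least, with 41.2% and 20.9% for H2-DMa and 33.6% and 32.5% for H2-DMb1. In limma the log2 change was -1.76 (SE 0.27) for H2-DMa and -1.59 (SE 0.14, adjusted p = 0.00144) for H2-DMb1, beside -5.91 (SE 0.19) for H2-Aa and -5.96 (SE 0.21) for Cd74.

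**Figure D4:**
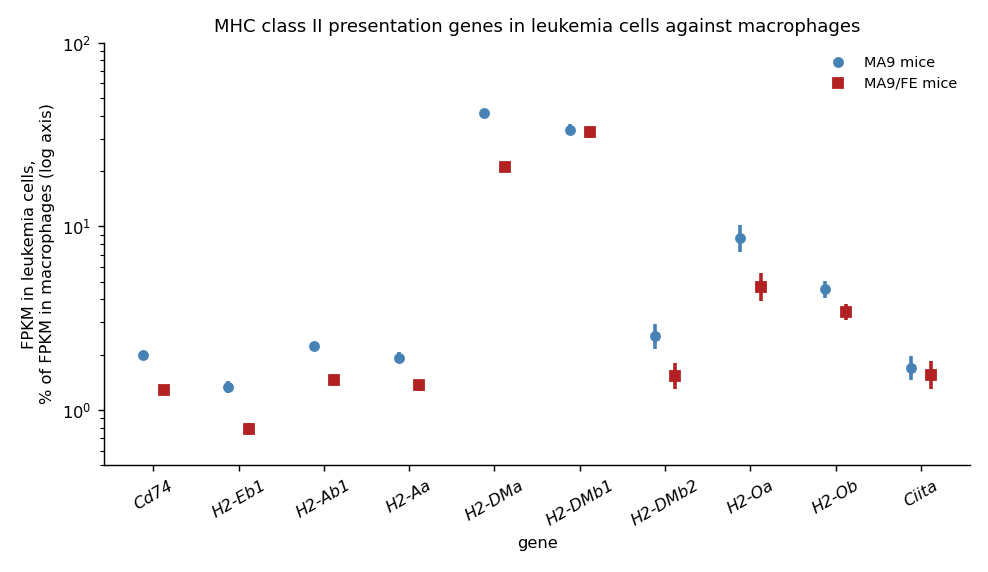
FPKM in leukemia cells as a percentage of FPKM in macrophages of the same kind of mouse (vertical axis, logarithmic) for each of the 10 genes (horizontal axis), with 95% counting intervals of the reads as bars. H2-DMa and H2-DMb1 lie between 20.9% and 41.2%, and the other 8 genes below 9%.

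Within a library the proportions of the peptide exchange genes differed between the kinds of cell. The ratio of H2-DMb1 to H2-DMb2 was 0.41 to 0.52 in macrophages and 6.77 (95% counting interval 5.76 to 8.0) and 8.71 (7.36 to 10.4) in leukemia cells, so H2-DMb1 made up 87.1% and 89.7% of the beta chain FPKM there. The ratio of H2-Ob to H2-DMa was 0.89 to 1.16 in macrophages and 0.11 and 0.15 in leukemia cells. The ratio of H2-DMa to H2-Aa was 0.0987 to 0.113 in macrophages and 2.22 and 1.73 in leukemia cells. Leukemia cells thus had more H2-DMa than H2-Aa transcript per length, and macrophages far less.

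**Figure D5:**
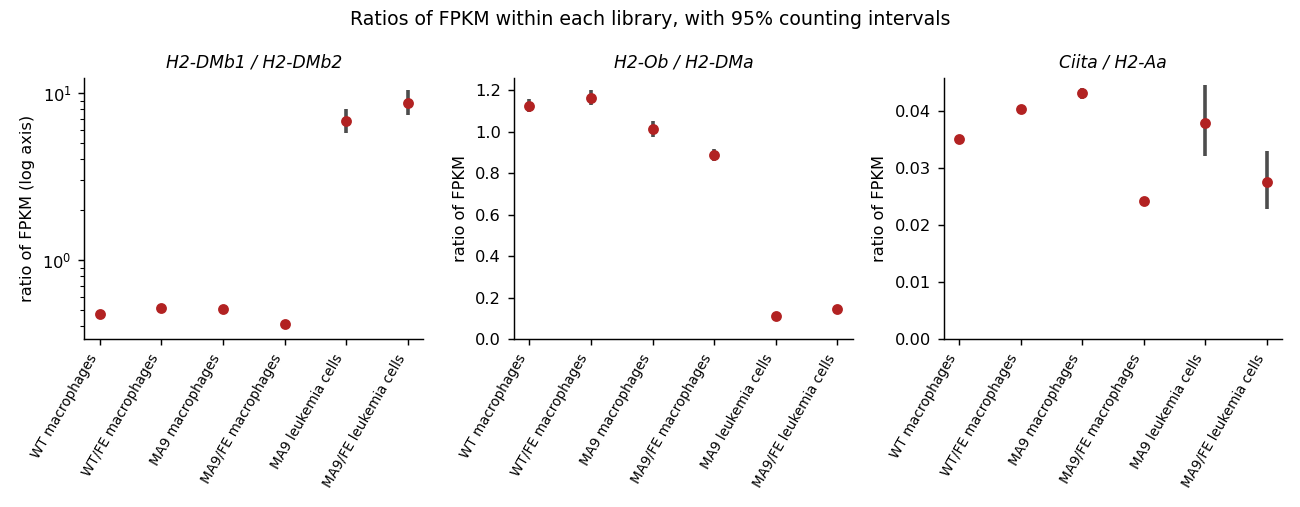
Ratios of FPKM within each of the 6 libraries, with 95% counting intervals of the reads as bars, for H2-DMb1 to H2-DMb2 (logarithmic axis), H2-Ob to H2-DMa and Ciita to H2-Aa. The first is above 6 in leukemia cells and below 0.6 in macrophages, and the second is below 0.2 in leukemia cells. The third is lowest in MA9/FE macrophages (0.0242), a value inside the interval of MA9/FE leukemia cells (0.0276, 0.0228 to 0.0331).

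B cell markers were also far lower in leukemia cells than in macrophages, 12 of 13 past a fold of 2 in MA9 and 13 of 13 in MA9/FE mice. In MA9 leukemia cells Cd79a had 0.83 FPKM and Ms4a1, which encodes CD20, had 0.12 FPKM, against 415 and 76.0 in MA9 macrophages. Of the 111 FPKM that the 13 markers summed to in MA9 leukemia cells, 86.9 were of Cd37, which many leukocytes carry. The 10 class II genes together had 2.83 and 3.10 times the FPKM of the B cell markers in the leukemia cell libraries.

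Other genes of the pathway were taken from lists. The class II promoter factors, 11 genes that include those of the RFX and NF-Y proteins, summed to between 354 and 372 FPKM in all 6 libraries. None of the 11 was past a fold of 2 in the 5 comparisons within a kind of cell, where between 0.868% and 4.75% of all genes were. At shares this low few of any 11 genes would pass, so this count does not set the promoter factors apart from other genes. In leukemia cells against macrophages Irf1, an interferon-induced factor, was lower in both kinds of mice, with 30.6 against 63.5 FPKM in MA9 and 18.7 against 59.4 FPKM in MA9/FE mice. Rfx5, the DNA-binding subunit of RFX, had 14.4 to 20.5 FPKM in macrophages and 7.46 and 8.29 in leukemia cells, which did not pass a fold of 2. Irf8 and Spi1, factors of myeloid and B cells, had 84.6 to 116 and 96.3 to 138 FPKM over the 6 libraries.

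H2-Eb2, the further beta chain gene with the spaced motifs, had 104, 95.6, 66.4 and 77.6 FPKM in macrophages and 0.57 and 1.37 in leukemia cells. Of the endosomal processing genes, 8 had reads enough to be tested. All 8 were higher in AML macrophages with iron than without, with a median of 0.72, and 1 was past a fold of 2, Ctsd, a lysosomal protease, with 116 against 57.3 FPKM. Ctss, the protease that trims the invariant chain, had 475, 434, 310 and 544 FPKM in macrophages and 111 and 123 in leukemia cells. In leukemia cells 3 of 8 in MA9 and 5 of 8 in MA9/FE mice were lower than in macrophages past a fold of 2, where 12.8% and 13.1% of all genes were. Of the 4 costimulation genes 3 were lower past that fold in both, Cd86, Cd40 and Icosl, whereas Cd80 had 9.67 to 10.9 FPKM in leukemia cells and 9.93 to 13.5 in macrophages. Among the 12 class I genes, 2 in MA9 mice were lower past a fold of 2, a share near that of all genes, and 6 in MA9/FE mice were, while 1 was higher in MA9, Calr, a chaperone of the endoplasmic reticulum, with 587 against 262 FPKM. H2-K1, a classical class I heavy chain, had 578 and 445 FPKM in leukemia cells, against 1211 and 1490 in macrophages.

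The genes with the profile nearest to that of the classical chains and Cd74 were sought among 7054 genes, by the distance of centred log2(FPKM + 1) over the 6 libraries. The 10 nearest were Gimap3, Tnfrsf13c, Fcrla, Asb2, Scd1, Dtx1, Gimap4, Ms4a1, Spib and S1pr1, at distances of 0.28 to 0.50. Of these 10, only Fcrla and Ms4a1 were on the list of B cell markers. Gimap3, the nearest, had 95.1, 98.7, 52.9 and 91.8 FPKM in macrophages and 0.26 and 0.15 in leukemia cells. Tnfrsf13c, which encodes the BAFF receptor of B cells, had 81.4, 86.9, 58.2 and 83.5 FPKM in macrophages and 0.16 and 0.25 in leukemia cells. Ms4a1, also a B cell marker, had 125, 109, 76.0 and 112 FPKM, and 0.12 and 0.13 in leukemia cells. Of the remaining class II genes, H2-DMb2 lay at 0.70, Ciita at 1.40 and H2-DMa at 5.0. The distances include the leukemia cell libraries, where all 10 of the nearest genes were at or below 1.38 FPKM. At such levels the 1 added to FPKM limits how far a gene can fall. A near profile here is therefore not an equal fall in FPKM.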

How the data were processed

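Sorted cells had been sequenced on an Illumina NovaSeq by a service provider. The authors deposited FPKM for 54532 genes in each of 6 libraries, 1 per condition. The submitters' processing notes name Bowtie2 2.2.5, RSEM and mm10, with no annotation. Each deposited FPKM multiplied by a gene length gives whole reads within 0.05 for 99.74% to 99.81% of values above 0, after the lengths of 750 genes, 9 of the 10 class II genes among them, had been found from the values themselves. Reads of 110 genes were not recovered. The recovered reads sum to between 16119160 and 19124875 per library. The deposited FPKM turned out to be scaled by factors proportional to median-of-ratios size factors over the 6 libraries and not by total reads, so levels are comparable between libraries only if most genes did not change.

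Each comparison of 2 libraries used log2(FPKM + 1) after TMM scaling (coded by hand) over genes reaching 10 reads in either, and called a fold of at least 2, with no p-value. The intervals are exact 95% Clopper-Pearson intervals of the recovered reads and cover counting error only. Reads are not independent molecules without molecular identifiers. Additive fits and the fit over 3 pairs used limma 3.58.1 under R 4.3.3 on the genes that reached 10 reads in 2 or more libraries, and adjusted p-values by Benjamini and Hochberg (threshold 0.05). The steps were tested on simulated data. Samples were grouped by the labels.

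All 10 class II genes, the genes of the lists and the 10 nearest profiles, among genes of at least 10 FPKM in a library, were named by rule. The genes and lists were chosen with earlier results of these data known, so no list is independent evidence. Alternatives were total reads, TMM with immunoglobulin and hemoglobin genes left out, median of ratios, a pseudocount of 0.1, no minimum or at least 50 reads, and removal of the trend with gene length. FPKM as deposited and a fold of 1.5 were added after the data had been seen. Promoter windows came from RefSeq for GRCm38.p6 (7 of 10 genes), and coordinates and overlaps from GENCODE M21.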

Additional observations from a re-analysis of the deposited data

Results flagged for a closer look

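The iron comparison had the opposite sign in WT and MA9 macrophages, beyond counting error in both, for 8 of the 10 genes. In WT macrophages these fold changes were small, from -0.18 for Cd74 to 0.08 for Ciita. The same count was not made over all genes, so how unusual 8 of 10 is cannot be said. On the log2 scale, the fold change in MA9 minus that in WT macrophages was 0.996 for Cd74, 0.93 for H2-Eb1, 0.90 for H2-DMa, 0.87 for H2-Ab1, 0.75 for H2-Aa, 0.74 for H2-DMb2 and 0.67 for H2-Ob. For Ciita it was -0.28, with a fold change of 0.08 in WT and -0.20 in MA9 macrophages. The iron fold change of H2-DMa in leukemia cells minus that in MA9 macrophages was -1.01. Against WT macrophages, that in leukemia cells differed by 0.32 for Cd74 and by -0.26 for Ciita. With 1 library per condition none of these differences was tested. Each side of the first set rests on 2 libraries, and the B cell markers summed to 56.9% of WT in the MA9 macrophage library, where the macrophage markers summed to 98.2%.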

How the results depend on the processing

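The signs in MA9 against WT macrophages (10 of 10 lower), in MA9/FE against MA9 macrophages (9 of 10 higher) and in leukemia cells against macrophages (10 of 10 lower) were kept under every scaling run. In WT/FE against WT macrophages 9 of 10 were lower, and 8 by total reads. Counts of the 10 past a fold of 2 were kept in every setting, and at a fold of 1.5 they were 9 for leukemia without iron, 1 for leukemia with iron and 7 for iron in MA9 macrophages, with no other count altered.

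Counts over all genes moved. In the order iron in WT macrophages, leukemia without iron, leukemia with iron, iron in MA9 macrophages, iron in leukemia cells, and leukemia cells against macrophages without and then with iron, the main counts were 218, 806, 755, 402, 134, 3449 and 3821. With a pseudocount of 0.1 they were 793, 1993, 2085, 1502, 635, 5835 and 6498, and at a fold of 1.5 they were 803, 2225, 2921, 1939, 526, 6078 and 6871. With no minimum of reads the iron counts were 500 (WT), 726 (MA9) and 386 (leukemia cells), and with at least 50 reads 117, 231 and 61. The split into higher and lower changed in MA9/FE against WT/FE from 484 and 271 to 341 and 366 by total reads and to 343 and 383 without the length trend. In MA9/FE against MA9 it changed from 197 and 205 to 138 and 281 and to 137 and 263, and in leukemia cells of MA9 mice from 1267 and 2182 to 1779 and 1870 without the length trend, which set the median of all genes to 0.11. With iron the same change was from 1616 and 2205 to 2043 and 1936, so that more genes were higher than lower. In limma on macrophages the leukemia count of 373 was 79 by total reads and 0 with no minimum of reads, where 2875 had an unadjusted p under 0.05, and the iron count of 2 was 0 by total reads, with a pseudocount of 0.1 and with no minimum of reads, where 563, 827 and 941 had. The count of 6230 for kind of cell was 3146 with no minimum of reads, where 9 of the 10 class II genes passed and the highest adjusted p was 0.0882. The cause was not tested.

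The 3 pairs are pairs of condition and not of animals. No paired analysis was possible because each condition has 1 library, beyond that fit, which called 0 genes by limma with the replicate block, 0 with no replicate block (38 with an unadjusted p under 0.05) and between 0 and 2 when a pair was left out, the 2 without the leukemia cell pair. Depth limits Ciita, H2-DMb2 and H2-Oa in leukemia cells, with 133 to 175 reads each.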
